A study of Mus musculus with 16 samples.

Results

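The mitochondrial ribosomal protein genes are the nuclear genes named Mrpl or Mrps plus a number. They were found by that name on a spotted mouse array: 78 of 24109 gene probes carried such a name, for 74 genes. Of these genes, 45 are named Mrpl and 29 are named Mrps, and 4 genes (Mrpl15, Mrpl33, Mrpl47 and Mrps5) had 2 probes each, called probe 1 and probe 2 in the order of their brightness. By current knowledge of the structure, 47 of the genes encode proteins of the large subunit and 26 encode proteins of the small subunit. Mrps30 and Mrps18a are counted with the large subunit, where their proteins sit in spite of the names. Mrps36 is counted with neither, because its protein belongs to the 2-oxoglutarate dehydrogenase complex. All 78 probes matched their gene in RefSeq, by accession or, where the accession was not found there, by symbol. Another 3 probes carry a member name only under current symbols.

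Mitochondria have their own ribosome, which makes the few proteins encoded in mitochondrial DNA, all of them parts of the respiratory chain complexes and ATP synthase. Its RNAs come from mitochondrial DNA, but every one of its proteins is made in the cytoplasm from nuclear genes such as these and is imported. Part of the proteins descend from the bacterial ribosome and part are specific to mitochondria. The complex is built in every nucleated cell, so its mRNAs serve as widely expressed, moderately abundant messages rather than as cell type markers.

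The series measured gene expression on 16 arrays, each hybridised with 1 sample labelled with Cy5, to test a microfluidic rotary mixer made for the RNA of a single cell. The control group (3 arrays) received 15 µg of total RNA of adult female B6.C3Sn mouse forebrain, labelled directly without amplification. The microfluidic group (3 arrays) received 10 pg of RNA of the same kind, reverse-transcribed for 20 min in a 7 nL rotary mixer. The conventional group (3 arrays) received 10 pg of it, reverse-transcribed for 20 min in 10 µL in a tube. The cDNA of both 10 pg groups was amplified by 40 cycles of template-switching PCR, a method that copies mRNA from its poly(A) tail and keeps cDNA that reached the 5′ end. The labels describe the adult RNA as coming from 1 wild-type forebrain, so that the arrays of these groups differ by technical spread, and p-values measure only that spread. The single-cell group (4 arrays) holds individual cells of the caudal ganglionic eminence (CGE) of OF1 mice at embryonic day 14. The CGE is a transient forebrain region that produces cortical interneurons. Each cell was lysed and reverse-transcribed for 25 min in the mixer and amplified by 40 cycles in a tube. The explant group (3 arrays) received 5 µg of unamplified RNA of embryonic day 14 OF1 tissue, which the labels place in the CGE although the protocol for extraction speaks of telencephalon. It was labelled through aminoallyl nucleotides, in place of the dye-coupled nucleotide used for control, and no label says how many embryos were pooled.

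Levels are given on a pair of scales. Net intensity is the scanner's foreground median minus the local background median of a spot, on a scale that ends where the detector saturates. The normalized log2 level is made from it with the same distribution on each array, so it says where a probe stands among all probes of its array. A probe can therefore have a higher normalized level at a lower net intensity when the whole array is dimmer. Median net intensity over all gene probes was 3390 to 4243 on control, 840 to 1640 on microfluidic, 175 to 210 on conventional, 797 to 1826 on single-cell and 153 to 1090 on explant arrays. All mature neuron markers tested (6 of 6) were lower in explant than in control, and 8 of 10 markers of young neurons and ganglionic eminence were higher. Of 4 pallial markers (Emx1, Tbr1, Neurod6 and Neurog2), 2 were higher and 0 lower in explant, and 2 to 3 were detected on each explant array. All 5 oligodendrocyte markers were detected on no explant array. Each scan session with a record held arrays of 1 group only, so group and session cannot be told apart. The scanned images of the explant arrays also carried another letter code in their names than the other arrays with a record. What this code stands for is not stated in the sources used here.

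The probe oligonucleotides were not among the sequences used here. The promoters of the members were read instead, for letters known from ETS factors, YY1 and NRF1. In 65 of the 74 genes a RefSeq window (GRCm38.p6) of 250 bases before to 50 bases after the start was searched on both strands. The core letters of ETS factor sites, CCGGAAG, known from the factor GABP, were in 24 of the 65 (36.9%), against 9.93% of 27025 genes with a window. The letters AAGATGGCG, known from YY1, were in 7 members (10.8%), against 1.64% of all. The core palindrome of NRF1 was in 3 members (4.62%), against 1.07% of all. No window held 2 different motifs that overlapped. A match of letters is a description and does not show that a factor binds there. Any of the ETS, YY1 or NRF1 letters were in 32 of the 65 members (49.2%), against 12.1% of all. Among the members named below for their difference between explant and control, Mrps31, Mrps25 and Mrpl20 have windows that hold none of them. The following 4 windows belong to other members named for that difference and hold the ETS letters, the YY1 letters or both. They are read 5′ to 3′ along the gene, with the motif or its reverse complement in capitals. Their positions are chr5:31613701-31614000 (plus strand) for Mrpl33, chr3:95871465-95871764 (minus strand) for Mrps21, chr11:5707652-5707951 (minus strand) for Mrps24 and chr13:99344536-99344835 (plus strand) for Mrps27.
Mrpl33: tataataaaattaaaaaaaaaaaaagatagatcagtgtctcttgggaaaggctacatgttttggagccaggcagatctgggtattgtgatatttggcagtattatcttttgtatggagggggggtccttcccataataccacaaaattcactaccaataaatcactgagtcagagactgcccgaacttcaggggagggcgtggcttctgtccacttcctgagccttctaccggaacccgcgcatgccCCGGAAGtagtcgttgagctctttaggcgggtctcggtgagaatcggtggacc
Mrps21: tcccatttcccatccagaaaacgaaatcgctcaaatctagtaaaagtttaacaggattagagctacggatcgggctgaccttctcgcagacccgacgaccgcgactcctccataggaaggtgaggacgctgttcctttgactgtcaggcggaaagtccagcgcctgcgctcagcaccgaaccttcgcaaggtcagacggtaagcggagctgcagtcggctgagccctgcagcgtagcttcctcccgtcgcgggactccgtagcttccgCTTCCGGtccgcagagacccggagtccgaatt
Mrps24: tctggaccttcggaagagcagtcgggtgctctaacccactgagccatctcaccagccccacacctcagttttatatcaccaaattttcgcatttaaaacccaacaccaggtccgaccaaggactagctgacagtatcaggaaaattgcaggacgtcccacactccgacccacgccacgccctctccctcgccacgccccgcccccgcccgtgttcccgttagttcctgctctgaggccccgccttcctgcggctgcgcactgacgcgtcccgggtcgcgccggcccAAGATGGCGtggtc
Mrps27: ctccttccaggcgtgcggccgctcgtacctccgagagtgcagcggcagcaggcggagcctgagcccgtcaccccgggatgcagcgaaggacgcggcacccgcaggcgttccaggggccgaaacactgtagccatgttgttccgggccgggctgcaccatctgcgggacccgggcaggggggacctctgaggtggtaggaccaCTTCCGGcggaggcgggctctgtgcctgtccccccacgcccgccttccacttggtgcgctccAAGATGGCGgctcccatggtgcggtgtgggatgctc
The ETS letters start within 50 bases of the annotated start in Mrpl33, Mrps21 and Mrps27, and the YY1 letters lie after the start in Mrps24 and Mrps27.

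Most members were above background in unamplified adult forebrain and fewer in every other group. A probe was called detected when its foreground median exceeded the background median plus 2 background SD. On the control arrays 55.3 ± 4.04 member probes were detected (SD, n = 3), or 70.9% of those measured, against 66.5% of all gene probes. On the microfluidic arrays 33.7 ± 6.03 were detected (n = 3), 44.3% against 47.6%. In the single cells 27.8 ± 5.38 were detected (n = 4), 36.8% against 39.8%. On the explant arrays 22.7 ± 6.66 were detected (n = 3), 30.9% against 23.7%. The conventional arrays gave 37, 1 and 4 detected members, or 48.1%, 1.32% and 5.13%, against 42.6%, 3.25% and 5.76% of all gene probes. The first of these counts rests on blank spots, since that file holds no background SD, and it was 6 when a background SD was filled in from the remaining conventional files, a setting chosen after seeing the data. The mean member share was thus above that of all probes in control and explant and below it in the microfluidic and single-cell groups. In the conventional group the mean was above as well (18.2% against 17.2%), through its first array. Only in explant did every array show the order of its group means. The order was reversed on control 2, microfluidic 1, cell 4 and conventional 2 and 3. A split between unamplified and amplified groups can therefore not be read from these shares.

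**Figure D1:**
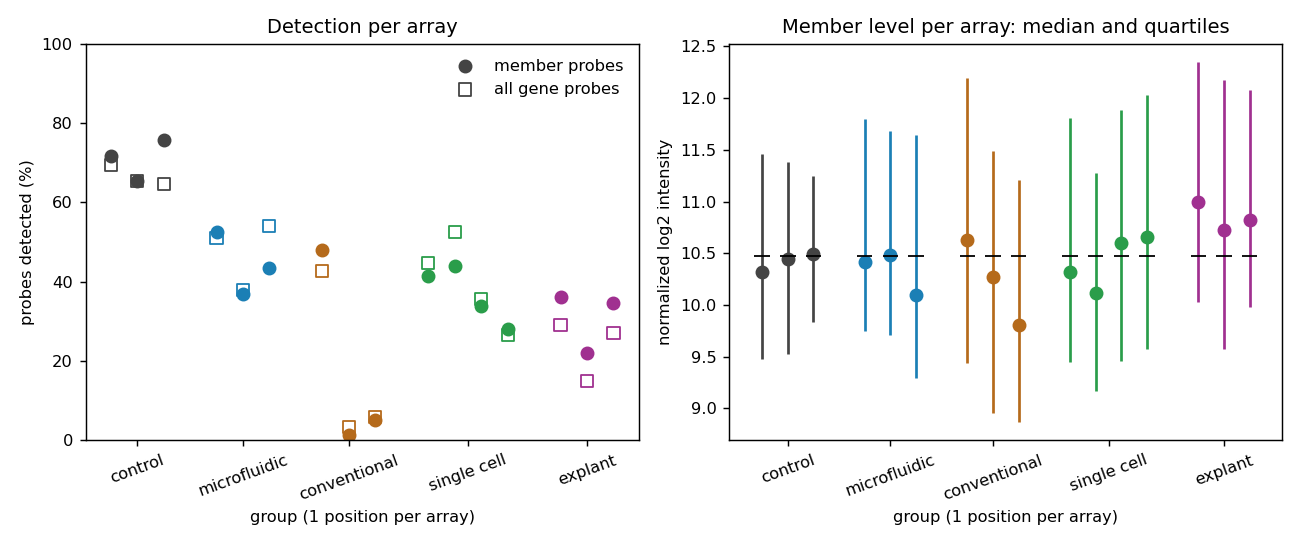
Left, percent of probes detected on each of the 16 arrays, filled circles for the member probes and open squares for all gene probes. Right, median (point) and quartiles (line) of the normalized log2 level of the member probes per array, with the median of all gene probes as a black bar. Detection falls from control through microfluidic and single cells to explant, and the explant member medians lie above the bar on all 3 arrays. Those medians and the bar lie below the lowest detected level of the explant arrays.

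A few members were detected throughout. Mrpl12, Mrpl34, Mrpl45, Mrps17 and Mrps18a were detected on all 13 arrays of the control, microfluidic, single-cell and explant groups, or 6.41% of members against 3.13% of all probes. Another 5 members (6.41%) were detected on none of the 16 arrays, against 9.20% of all probes. Mrpl45, a protein at the exit of the peptide tunnel that holds the ribosome to the inner membrane, gave net intensities of 64182, 61080 and 64290 on control and 14252, 7388 and 11923 on explant arrays. Its microfluidic values were 64749, 50197 and 41798, and the cells gave 64173, 64404, 64448 and 6947. Control 1, control 3, microfluidic 1 and cells 1 to 3 are saturated and have no order among themselves, and the fourth cell stands well below them.
Mrpl12 encodes the protein of the flexible stalk that recruits translation factors. Its net intensity was 64373 (saturated), 46566 and 37459 on control and 16977, 13050 and 11095 on explant arrays. It was 64781 (saturated), 4452 and 4140 on microfluidic arrays and 4149, 26312, 4678 and 4026 in the cells. In the microfluidic and single-cell groups 1 sample was far above the rest. Mrps12, whose protein lies at the decoding centre, was detected on no array of any group, with net intensities of 1437, 1098 and 1056 on control.

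The 3 homologues Mrps18a, Mrps18b and Mrps18c, which descend from 1 bacterial protein and take different places in the ribosome, were each read by a probe of their own. Mrps18a was detected on all control, microfluidic, single-cell and explant arrays, at 42162, 8038 and 27718 on control and 63733, 64088, 6447 and 49598 in the cells, of which the first pair is saturated. Mrps18b was detected in all control arrays (9865, 7168 and 10604), all microfluidic arrays (3158, 3956 and 3672) and all cells (11398, 4986, 5617 and 3368), and on no explant array. Mrps18c was detected on no array, with its highest net intensity, 1330, on a control array. Probes differ in how well they bind, so these values order samples for a probe and not genes.

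**Figure D2:**
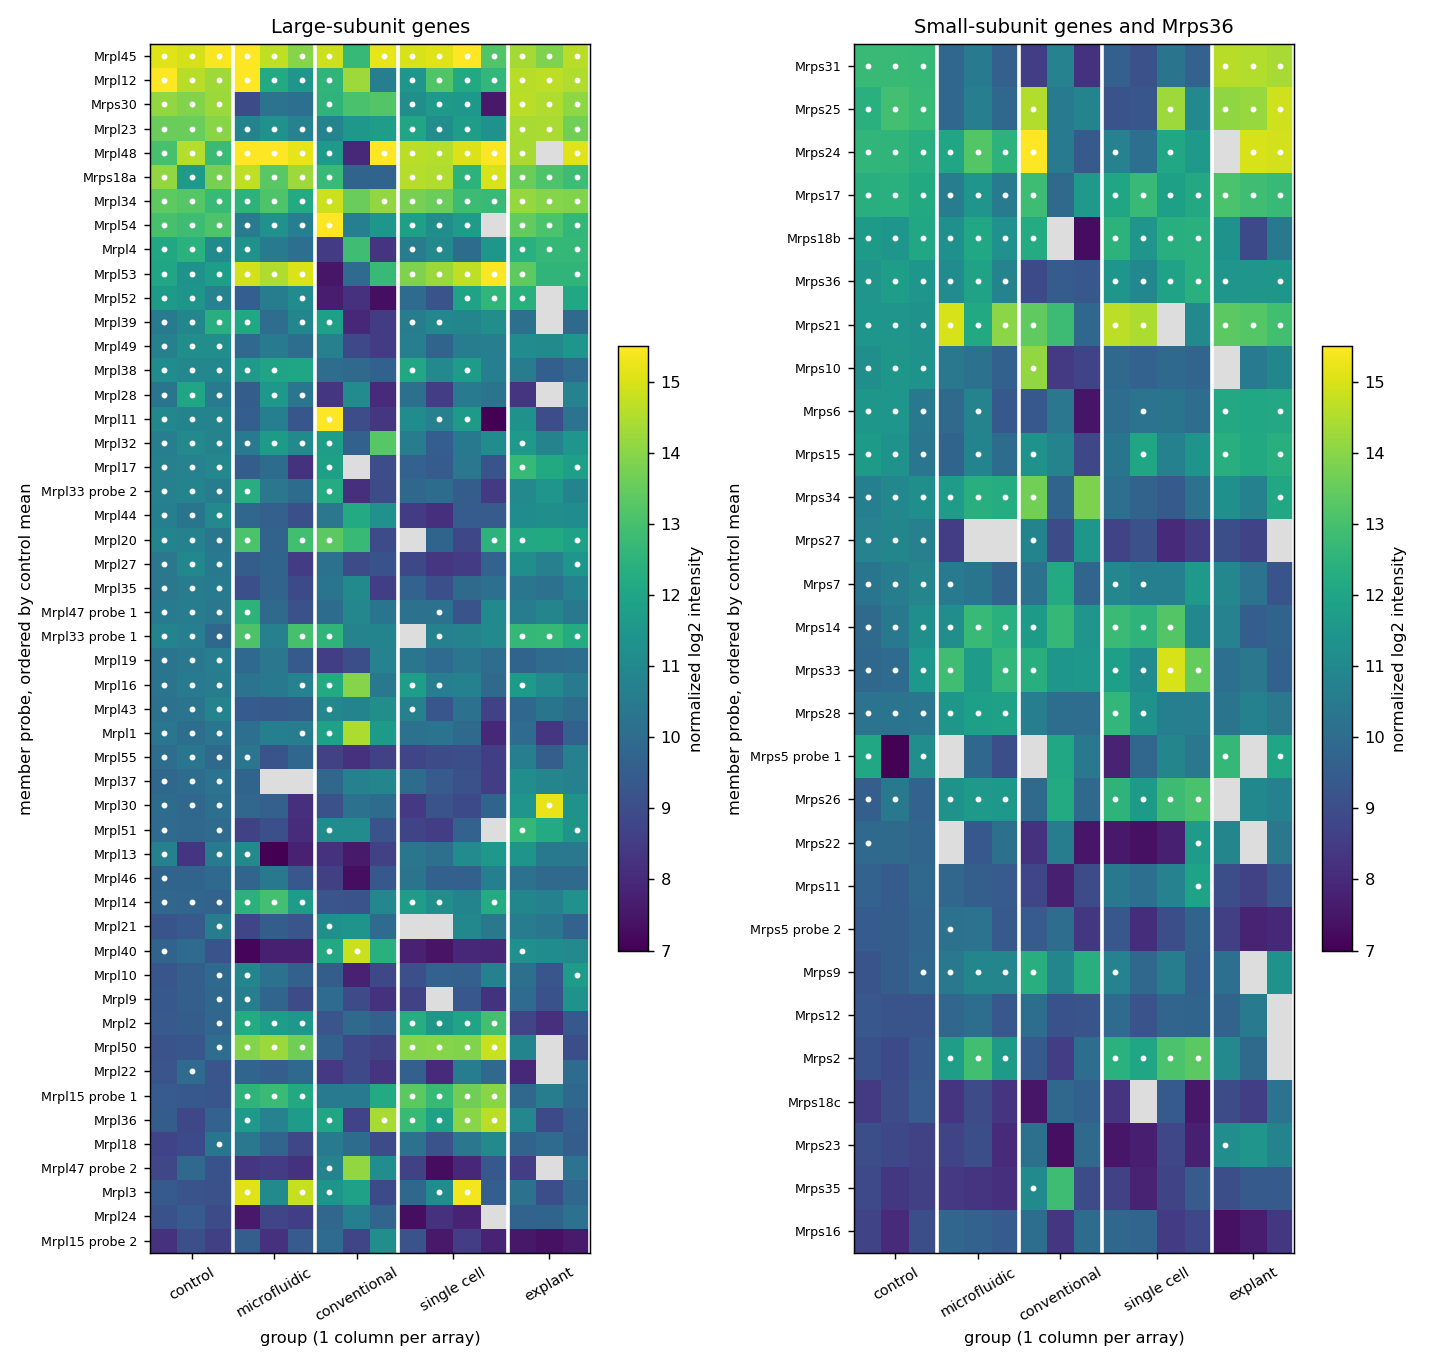
Normalized log2 level of all 78 member probes (rows, ordered by their control mean, large-subunit genes left, small-subunit genes and Mrps36 right) on the 16 arrays (columns). White dots mark detection and grey marks spots left out as bad. Rows such as Mrpl50, Mrpl53 and Mrps2 are bright in the microfluidic and single-cell columns, and Mrps30, Mrps31 and Mrps25 are bright in the control and explant columns.

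How a single-cell amount of RNA, carried through the mixer and PCR, represents its tissue was asked by setting the microfluidic group against control. The members split: 18 of 78 probes were higher and 16 were lower in microfluidic (limma, Benjamini-Hochberg adjusted p under 0.05), each a different gene. Over all 24038 tested probes 25.9% were higher and 24.7% were lower, so the members' shares of 23.1% and 20.5% were close to the background. The median member difference was -0.23 on the log2 scale, against 0.05 over all probes. The large subunit had 9 members higher and 11 lower, and the small subunit had 9 and 5. The arrays of the groups lay apart without overlap for 39 of the 78 probes, against 63.4% of all probes. All 6 mature neuron markers were lower in microfluidic than in control as well, and the part of such losses in the members' values was not tested.

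Mrpl50, a mitochondria-specific protein of the large subunit, rose most among the members named by the rule for large changes. Its net intensities were 1257, 1177 and 2316 on control and 37961, 28920 and 31040 on microfluidic arrays. The groups did not overlap, and the mean normalized level moved from the 26.7th to the 95.4th percentile of all probes. The difference of normalized levels was 4.43 ± 0.33 log2 (SE, adjusted p = 1.16e-04). Mrpl53, another mitochondria-specific large-subunit protein, was at 12392, 6605 and 8405 on control and at 64498, 39344 and 64580 on microfluidic arrays, of which the first and the third are saturated. It rose (adjusted p = 2.25e-04), and its fitted difference of 3.13 log2 takes the saturated spots at their recorded value and so may be too small.
Mrpl15 (probe 1), a large-subunit protein with a bacterial relative, was not well above background on any control array (1663, 1215 and 1116). It was detected on all microfluidic arrays (10192, 7867 and 8202) and was at least 7.42-fold higher there (adjusted p = 1.75e-04). Its probe 2 was detected on no array of either group and did not pass the test. Mrps2, a small-subunit protein, went from 1209, 799 and 1210, all undetected, to 4790, 8760 and 5067, and was at least 5.58-fold higher (adjusted p = 8.2e-04). For both genes every microfluidic array lay above every control array.
Mrpl14, which lies at the interface of the subunits, rose by 2.61 ± 0.36 log2, from 2302, 1806 and 1705 to 9542, 9111 and 5365. Mrps21 rose by a fitted 2.30 log2 (adjusted p = 0.0202), with the saturated spot at its recorded value, from 8926, 7059 and 6790 to 64529 (saturated), 4376 and 43856. The second microfluidic array was below all controls in net intensity for Mrps21, and the call for this gene was lost (adjusted p = 0.055 to 0.063) when control 1, control 2, control 3 or microfluidic 3 was left out. Mrpl48, a large-subunit protein, was saturated on all 3 microfluidic arrays and was at least 4.05-fold higher (adjusted p = 0.0104). It was named after its values were seen.
Mrpl3 was at least 16.4-fold higher (adjusted p = 0.0074), with saturated values on microfluidic 1 and 3 (64577 and 64460) and an undetected one on microfluidic 2 (1544).

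Mrps30, a mitochondria-specific protein now placed in the large subunit, fell most. It was detected on all control arrays (42578, 30287 and 35996) and was undetected on all microfluidic arrays (374, 650 and 1160). It was at least 13.9-fold lower (adjusted p = 1.89e-04). Mrpl23, a protein beside the exit tunnel, was detected on all 6 arrays, at 30853, 24872 and 31944 on control and 2091, 1950 and 2192 on microfluidic, and fell by 2.73 ± 0.29 log2 (adjusted p = 3.32e-04).
Mrps31 and Mrps25 are mitochondria-specific proteins of the small subunit. Mrps31 went from 19385, 15328 and 15252 to 890, 851 and 723 and was at least 5.57-fold lower (adjusted p = 3.89e-04). Mrps25 went from 15875, 17627 and 15714 to 851, 982 and 884 and was at least 5.48-fold lower (adjusted p = 6.5e-04). Neither was detected on a microfluidic array, and each had its 3 control values within a narrow range.
Mrpl54 fell by 2.20 ± 0.31 log2, from 22889, 16776 and 19962 to 1527, 1958 and 1977, and was detected on all 6 arrays. Mrps27, a small-subunit protein with RNA-binding repeats, was lower by at least 1.66-fold, with only 1 microfluidic array measured (210, undetected) against 5444, 4838 and 4143. The test assumed that lone array to vary like the control arrays, so no p-value is given. Mrps27 is still counted among the 16 lower genes. In the 16 genes that were lower, all arrays measured lay apart between the groups, and 13 of them were detected on no microfluidic array. The matching shares among all probes called lower are not given here, so neither count is a trait particular to the members. Without control 1, 11 members were higher instead of 18. Here and below, counts without 1 array stand without the share of all probes, so they do not show a change particular to the members.

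**Figure D3:**
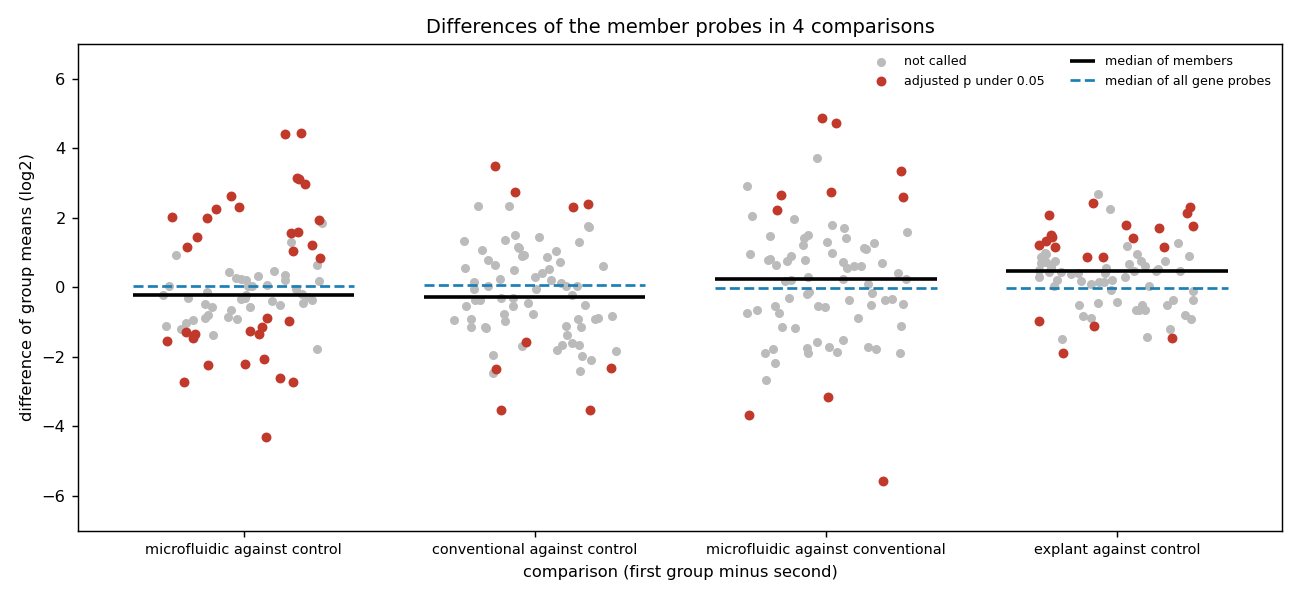
Difference of group means on the normalized log2 scale for each member probe in the 4 comparisons tested by limma (first group minus second). Red points passed an adjusted p under 0.05, grey points did not, black bars are medians of the members and dashed blue bars medians of all gene probes. The member median lies at -0.23, -0.27, 0.24 and 0.46 from left to right, against 0.05, 0.05, -0.01 and -0.01 over all probes.

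Proteins that work with the mitochondrial ribosome changed in both directions as well. Among 17 other ribosome proteins and translation factors of mitochondria, 2 were higher and 5 lower in microfluidic. Tufm, the elongation factor that delivers aminoacyl-tRNA, was at least 2.96-fold lower (adjusted p = 0.0015). Gfm1, the elongation factor for translocation, was at least 1.31-fold lower (adjusted p = 0.0034), and Chchd1, a small-subunit protein, was higher by 1.74 log2 (adjusted p = 0.0026). Among 24 genes of mitochondrial transcription, RNA handling and ribosome assembly, 8 were higher and 6 lower. Eral1, an assembly factor of the small subunit, was higher by 3.27 log2 (adjusted p = 1.8e-04), and Mtg1, a GTPase of large-subunit assembly, was at least 12.3-fold lower (adjusted p = 2.1e-04). Of 17 aminoacyl-tRNA synthetases 4 were higher and 2 lower, with Lars2, the leucine enzyme, at least 30.4-fold lower from saturated control values (adjusted p = 1.5e-04). Of 9 regulators of nuclear genes for mitochondria 4 were higher and 3 lower, including Gabpa, a subunit of GABP (at least 4.11-fold higher), and Yy1 (at least 1.64-fold lower). For comparison, nuclear genes of oxidative phosphorylation had 10 higher and 44 lower of 99 (median -1.03), and cytoplasmic ribosomal proteins had 11 and 23 of 80 (median -0.63).

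After the tube reaction, few members were detected on conventional arrays 2 and 3. The same question was put to the 10 µL reaction by setting it against control. No member was detected on all 3 conventional arrays, against 1.13% of all probes. Agreement between the arrays was poor for the members (correlation across the 78 probes 0.26 to 0.39, against 0.84 to 0.92 on control). Over all gene probes it was 0.44 to 0.61 on conventional and 0.93 to 0.95 on control arrays. These correlations are descriptions across genes. By the test, 5 members were lower and 4 were higher, against 14.3% lower and 14.6% higher over all probes. The member median was -0.27 log2, against 0.05, and the groups lay apart for 24 of 78 probes, against 49.2% of all.
Mrpl52, a large-subunit protein, had net intensities of -212, -110 and -250 on conventional and 9925, 6842 and 4294 on control arrays and was lower (adjusted p = 0.00256). Mrps31 (-74, 220 and -97; adjusted p = 0.00801) and Mrps36 (-33, 38 and 41, against 8729, 8635 and 7246 on control; adjusted p = 0.0075) were lower too. None of the 3 was detected on a conventional array, and no size is given, because the lowest detected signal of these arrays was too high for a bound.
Mrpl23 was lower by 2.36 ± 0.48 log2, at 277, 375 and 650. Only the first, the dimmest, counted as detected, just above the blank-spot limit of 276 that replaced the missing background SD on that array. That a size is given rests on this call, as it does for Mrpl1 below. Mrpl55 was undetected at -63, -112 and -39 against 2893, 3034 and 2097 on control (adjusted p = 0.0318), and its difference turned to 0.78 log2 with the authors' deposited values. Mrpl1, of the mobile L1 stalk, was higher in normalized level by 2.40 ± 0.76 log2 (adjusted p = 0.0466), while its net intensities were 671, 2381 and 600 on conventional and 3805, 2378 and 2997 on control arrays. In net intensity it was thus not brighter as a group, and its call was lost when any 1 control array was left out (adjusted p = 0.125 to 0.142). Leaving out conventional 1, 2 or 3 gave 16, 12 and 8 lower members and 5, 12 and 8 higher ones, and leaving out control 1, 2 or 3 gave 3, 2 and 3 lower and 1, 1 and 0 higher. The shares of all probes under these settings are not given here, so a change in the members alone cannot be read from the counts.
Of the related lists, 1 of 17 ribosome proteins and translation factors was higher and 0 were lower, 5 of 24 transcription and assembly genes moved each way, 5 of 17 synthetases were higher and 2 lower, and 1 of 9 regulators was higher.

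The direct comparison of the mixer with the tube, at the same amount of RNA, gave 7 members higher and 3 lower in microfluidic, against 5.59% higher and 6.01% lower over all probes. The median member difference was 0.24 log2, against -0.01, and the groups lay apart for 28 of 78 probes, against 39.6% of all. The 7 higher members were Mrpl2, Mrpl14, Mrpl50, Mrpl52, Mrpl53, Mrps2 and Mrps18a. Mrpl50 was at least 1.81-fold higher (adjusted p = 0.00243), with conventional values of 70, -30 and -43. Mrpl53 was at least 3.32-fold higher (-238, 105 and 1396 on conventional arrays; adjusted p = 0.0255). Mrps18a was higher (adjusted p = 0.0383), at 64343 (saturated), 12922 and 54926 against 1211, 74 and 95, of which only the first was detected. No size is given for it.
Mrps2 (adjusted p = 0.0312), Mrpl14 (adjusted p = 0.0421) and Mrpl2 (adjusted p = 0.0389), whose protein is near the centre where peptide bonds form, were detected on all microfluidic and no conventional arrays. The 3 lower probes were Mrpl40, Mrps30 and Mrpl47 probe 2, named after their values were seen. Mrpl40 had net intensities of -30, -42 and 15 on microfluidic and 810, 3620 and 1081 on conventional arrays, a fall of at least 7.34-fold (adjusted p = 0.00418).
Microfluidic arrays with 1 left out gave 1 or 2 higher members in place of 7, and leaving out conventional 1, 2 or 3 gave 3, 4 and 5. The call of Mrpl50 was kept in all of these, whereas the other 5 genes named as higher by the rule each lost theirs in at least 5 of the 6. Leaving out microfluidic 1 or 3 gave 1 lower member, and leaving out conventional 3 gave 5. These counts, too, stand without the share of all probes. Of the related lists, 0 of 17 ribosome proteins and translation factors was higher and 2 were lower, 1 of 24 transcription and assembly genes was higher and 3 lower, and 1 of 17 synthetases was lower.

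Explant and control arrays hold unamplified RNA of embryonic and adult forebrain. They also differ in mouse strain, labelling, amount of RNA, letter code of the scanned images and scan session, which cannot be told apart from age. In normalized level 16 of 78 probes (20.5%) were higher in explant, each of a different gene, and 4 (5.13%) were lower. Over all probes 16.2% were higher and 16.5% lower. The median member difference was 0.46 log2, against -0.01, and the medians were 0.71 for the small subunit and 0.47 for the large. The member median was above the median of all probes on each explant array, by 0.52, 0.25 and 0.35 log2. Both medians lay below the lowest level of a detected probe there (11.02, 12.13 and 11.11), so they order undetected signal. Of the members, 13 (16.7%) were detected on all explant arrays, against 11.8% of all probes. The groups lay apart for 41 of 78 probes, against 52.2% of all. Besides the neuronal and oligodendrocyte markers, 3 of 5 astrocyte markers were lower and 2 of 4 erythroid markers were higher in explant, and their part in the members' differences was not tested. In bulk RNA, fewer cells that express a gene and less RNA of it per cell cannot be told apart.
Mrps24, a small-subunit protein near the entry of the mRNA, rose most among the members named by the rule for large changes. Its net intensities were 17947, 14038 and 12564 on control and 18197 and 15245 on the 2 explant arrays measured, whose median probe was dimmer. The normalized level moved from the 84.7th to the 97.9th percentile, by 2.44 ± 0.28 log2 (adjusted p = 0.00132). Its promoter is among those printed above.
Mrpl33 (probe 1), a small protein of the large subunit, was at 5719, 3992 and 1940 on control and at 5448, 3385 and 3227 on explant arrays, a rise of 2.08 ± 0.33 log2 (adjusted p = 0.0033). Its probe 2, undetected on all explant arrays, did not pass (adjusted p = 0.308). Mrps31 rose by 1.79 ± 0.23 log2 (17001, 11684 and 10528 on explant, adjusted p = 0.00135). The groups lay apart in normalized level for each of these genes.
Mrps21 (8028, 4986 and 4785) rose by 1.76 ± 0.25 log2 (adjusted p = 0.00188), and Mrps25 (12317, 9214 and 14891) by 1.70 ± 0.31 log2 (adjusted p = 0.00568). Mrpl20, a large-subunit protein that binds ribosomal RNA early in assembly in bacteria, rose by 1.44 ± 0.26 log2 (adjusted p = 0.00554), at 4011, 2257 and 2647 against 5646, 4248 and 3006. No explant net intensity of these 5 genes, Mrpl33 to Mrpl20, was above the highest control value, so the rises are in rank among the probes of an array.
Mrps27 was lower (adjusted p = 0.0037), with undetected values of -50 and -1008 on the 2 explant arrays measured. Mrpl38 was lower (adjusted p = 0.0468), at 7060, 4927 and 5079 on control and at 1213, -516 and 670, all undetected, on explant arrays. No bound above 1-fold could be set for either, and the call of Mrpl38 was lost without control 1, 2 or 3, or explant 2 or 3 (adjusted p = 0.07 to 0.144). The 2 other lower probes, Mrps5 probe 2 and Mrpl15 probe 2, were detected in neither group. With a common spread over 5 groups, all 8 members named by the rule in this comparison lost their calls. Counts without 1 array ran from 11 to 17 higher. Leaving out control 2 or control 3 gave 2 lower probes, and leaving out explant 3 gave 7. No share of all probes stands beside these counts.

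Of the 16 higher genes 7 held the ETS letters in the promoter window (43.8%), against 34.7% of the 49 other members with a window. Related lists are given beside the members, with no test of a difference between lists. Of 17 other ribosome proteins and translation factors 3 were higher (Mtres1, Chchd1 and Mrpl57) and 0 lower. Of 24 transcription, RNA handling and assembly genes 3 were higher and 4 lower, with Slirp, which stabilises mitochondrial mRNA, higher by 3.53 log2 (adjusted p = 9.6e-05). Mtg1 was at least 5.51-fold lower (adjusted p = 4.6e-04). Of 17 synthetases 2 were higher and 2 lower, and of 9 regulators 3 were higher and 1 lower, Ppargc1a, the coactivator of mitochondrial biogenesis, by at least 1.69-fold (adjusted p = 6.7e-04). Of 80 cytoplasmic ribosomal proteins 53 were higher and 1 was lower, with a median of 2.03 log2. Of 99 nuclear genes of oxidative phosphorylation 27 were higher and 4 lower, with a median of 0.53.

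**Figure D4:**
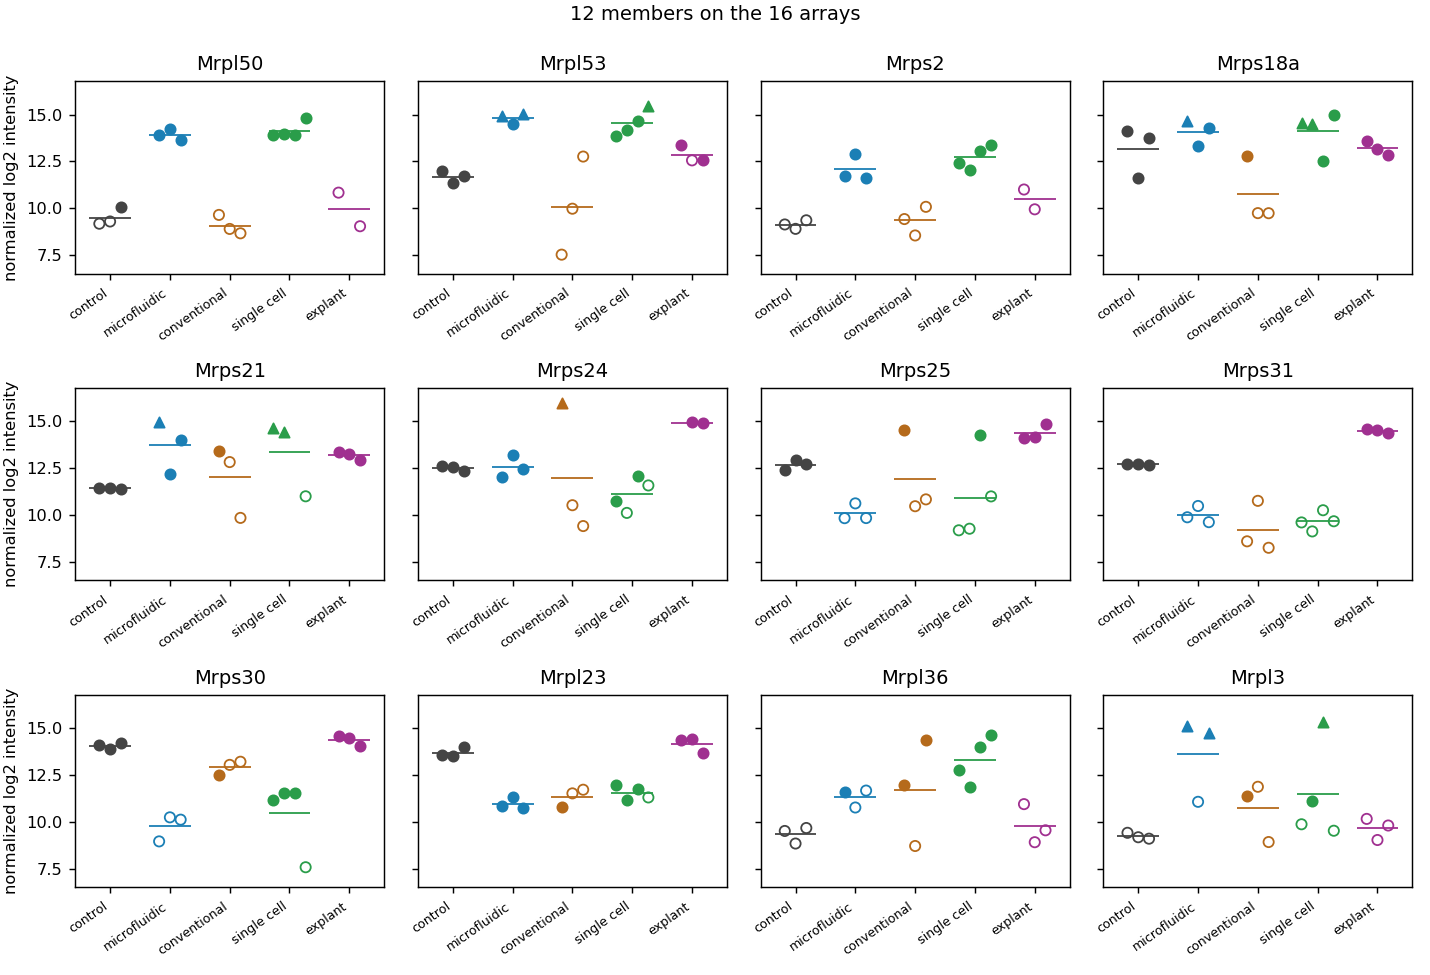
Normalized log2 level of 12 members on the 16 arrays, 1 panel per gene and 1 point per array, with group means as bars. Filled symbols are detected, open symbols are not, and triangles are saturated. Mrpl50, Mrpl53 and Mrps2 are high in the microfluidic and single-cell groups, while Mrps31 is detected only on control and explant arrays.

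Single cells were set beside the explant to see how individual cells relate to their tissue. No animal is named for any cell, so no test was made. The cells were amplified by 40 cycles and the explant RNA was not, and they were scanned in different sessions. A difference between cell and tissue therefore cannot be told apart from one of amplification or session. Of 53 member probes measured on all 7 arrays, 21 (39.6%) had all 4 cells below all explant arrays and 10 (18.9%) had them above. The shares of all probes measured on all 7 were 24.1% and 23.7%. Of the 21 members, 6 were detected in no cell and on no explant array, as was 1 of the 10, so these order undetected signal only. The median member difference of means was -0.49 log2, against 0.04. Of the members, 16 (20.5%) were detected in all 4 cells and 36 (46.2%) in none, against 17.1% and 40.9% of all probes.
Mrpl36, a large-subunit protein, had the largest difference of group means among the 10. Its net intensities were 15061, 7388, 24888 and 29235 in the cells and 1780, -905 and 407 on explant arrays, none of which was detected. It was at least 3.72-fold higher in the cells. Mrpl2 (9437, 5275, 3755 and 5666) and Mrpl15 probe 1 (25703, 17253, 18558 and 14695) were likewise detected in all cells and on no explant array, at least 1.70-fold and at least 4.04-fold higher. Mrps33, a small-subunit protein, was at 5753, 3636, 63235 (saturated) and 9048, and at least 2.68-fold higher. Mrpl50, with only 2 explant arrays measured and so outside the 10, was at least 8.48-fold higher. The bounds do not keep the order of the means, because the explant values are undetected.
On the other side, Mrps31 was undetected in all cells (707, 541, 825 and 380) and bright on all explant arrays, at least 14.4-fold lower in the cells. Mrps30 was at 3179, 5501, 2510 and -25 in the cells, against 17197, 11101 and 8675 on explant arrays, a normalized difference of -3.92 log2. Mrpl30 was undetected in all cells, and its explant level rested on 1 array (2587, 29244 and 1955, of which only the second was detected). Mrpl40 was undetected in all cells, at -57 to 53, and detected on 1 explant array.

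Many members that differed between microfluidic and control differed the same way between cells and explant. Microfluidic against control and cells against explant share no array, although they share the normalization and the PCR method. Of the 18 members higher in microfluidic than in control, 12 were measured on all 7 arrays of cells and explant. Of those, 8 had all cells above all explant arrays (8 of the 10 members with that pattern) and 1 had them below. Mrps16, among the 8, was detected in no cell and on no explant array. Of all probes higher in microfluidic and measured on the 7 arrays, 58.8% had the cells above and 2.80% below. Of the 16 lower members, 12 were measured on all 7, and 10 of these had all cells below (10 of the 21) and 0 above, against 53.9% and 2.47% of all probes lower in microfluidic. Mrpl35, Mrpl44 and Mrpl49, among the 10, were likewise detected in no cell and on no explant array. The sign was the same for 71.8% of the members and 74.9% of all probes. The differences correlated across the 78 member probes with Pearson's r = 0.72 and Spearman's rho = 0.67, a description across genes that are not independent. Across 23826 gene probes the values were 0.67 and 0.67, so that the relation belonged to the probes of the array in general. The exception among the higher members was Mrps34, a small-subunit protein, with 4704, 5231 and 8854 on microfluidic arrays and 1105, 901, 274 and 646 in the cells.

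**Figure D5:**
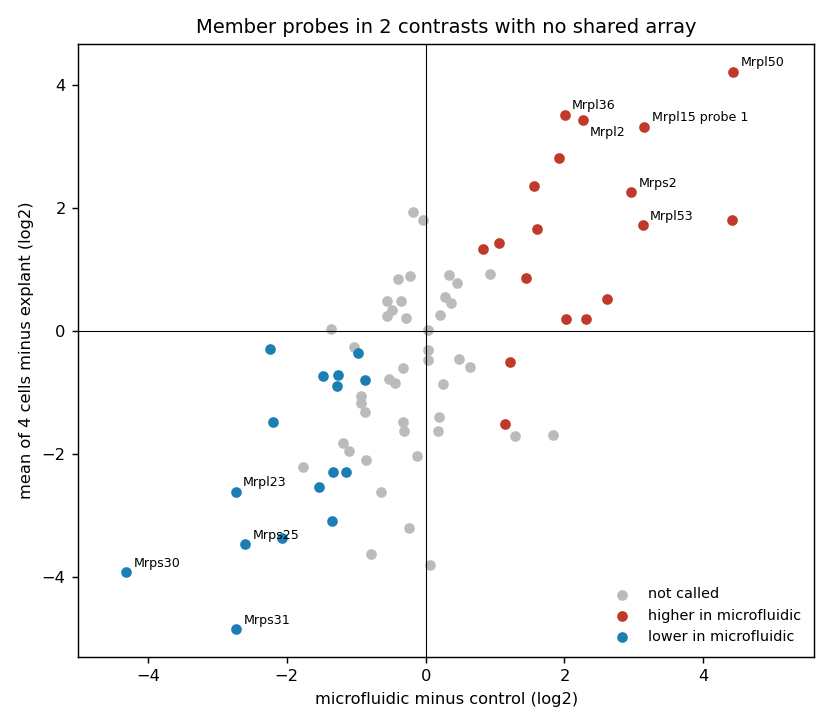
Each point is a member probe, with the microfluidic minus control difference on the horizontal axis and the mean of 4 cells minus explant on the vertical axis, both in normalized log2 units. Red and blue mark members that were higher or lower in microfluidic by the test. All 16 blue points lie below 0 on the vertical axis, and 16 of the 18 red points lie above it.

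Set beside microfluidic arrays, which hold adult RNA amplified in the same device, the cells gave member shares near those of all probes. Of 65 members measured on all 7 arrays, 2 had all cells below (Mrps34 and Mrpl55) and 5 had them above, against 6.67% and 5.04% of all probes. The median member difference was 0.00 log2, against 0.03. Mrpl36 was 1.97 log2 above microfluidic (4275, 1142 and 5211, of which only the first was detected). Mrps17, a small-subunit protein, was 1.36 log2 above, with 7327, 16949, 3406 and 2712 in the cells against 1640, 2188 and 1650. Mrps11 was detected in 1 cell and on no microfluidic array, and Mrps26 was 1.02 above, with 11785, 6023, 8893 and 6037 against 3414, 2587 and 4625. Leaving out cell 2 gave 10 members above and leaving out microfluidic 2 gave 13. Leaving out cell 3, cell 4, microfluidic 1 or microfluidic 3 gave 4, 4, 5 and 8 members below. The shares of all probes without these arrays are not given here.

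The cells also differed from each other. Over the 69 members measured in all 4 cells, the median range was 1.43 log2, close to that of all probes. The number of members detected was 31, 33, 26 and 21 in cells 1 to 4. Mrpl3, a large-subunit protein that reaches towards the peptide-bond centre, was saturated in cell 3 (64311), detected in cell 2 (3678) and undetected in cells 1 and 4 (893 and 315). On microfluidic arrays the same gene was saturated on 2 and undetected on 1, and it was undetected on all control arrays (1605, 1054 and 942).
Mrps25 was detected in cell 3 alone (30740, against 480, 619 and 1151 in cells 1, 2 and 4). Mrps22, a small-subunit protein, was detected in cell 4 alone (1849, against 20, 13 and -86). Mrps28 was highest in cell 1 (12833, 4525, 1194 and 888), as was Mrpl16 (5660, 2164, 1249 and 518), a protein of the tRNA-binding region. Mrps15 was highest in cell 2 (1356, 8352, 1254 and 1510), as was Mrps17. Mrps11 was detected in cell 4 alone (1501, 1301, 1292 and 2271). With 1 array per cell, a difference between cells and a difference between reactions cannot be told apart.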

How the data were processed

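RNA levels were measured on 16 one-colour (Cy5) spotted arrays, grouped by the labels. Per the file headers, the deposited scanner files hold raw foreground and background intensity of 25344 spots, written by Mapix (versions 2.3.0, 2.2.4, 2.4.4 and 2.5.1, per the submitters' files), not normalized. The 3 conventional files have no header. The deposited spot marks are on no measurement scale (other). The authors' deposited table holds signal values whose making is not given in the sources used here, and it served only as an alternative. Bad-marked spots were dropped, saturated ones kept.

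Intensities were corrected by normexp (offset 50), quantile-normalized over 16 arrays and taken to log2 in limma 3.58.1 under R 4.3.3. No filter on dim probes was used, since it keeps probes through the group where they are high. Each comparison of 2 groups was a separate two-sided limma fit on those arrays alone, adjusted by Benjamini-Hochberg over all gene probes. A fold is a bound where a whole group is undetected or saturated, set against the lowest detected signal of each array. A gene with 2 probes is represented by the brighter. The procedure was tested on simulated data. Members, lists, tests and alternatives were chosen with earlier results of these data known. Named are, per test, up to 6 largest rises and 6 largest falls past the threshold without overlap and detected on all arrays of 1 group, 4 highest and 4 lowest members for cells, up to 2 per cell by excess over the other cells, 6 anchors (Mrps12, Mrpl12, Mrps18a, Mrps18b, Mrps18c, Mrpl3), and up to 3 genes per pathway list. The number of arrays limits the precision. Depth is set by signal over background.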

Additional observations from a re-analysis of the deposited data

Results flagged for a closer look

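In the 4 single cells, 5 of 36 summaries with a value in each cell had 1 cell apart from the other 3, by a gap beyond Dixon's 95% limit for 4 values, where chance gives about 1 in 20 for values not chosen by such a gap. Some of the genes had been named for their excess in 1 cell, Mrps22 among them, so this rate does not apply to those. Cell 4 was the one apart in 4 of them. Its normalized log2 level was 11.66 for Mrps22, against 7.38 to 7.75 in the others, and 14.80 for Mrpl50, against 13.90 to 13.97. It was lowest for Mrps30, at 7.57 against 11.19 to 11.55, and for Mrpl1, at 7.97 against 9.94 to 10.24, all of them undetected. For Mrps18b cell 2 was lowest, at 11.44 against 12.37 to 12.49. Cell 4 was scanned in another session than cells 1 to 3 and had the fewest members detected (21, against 26 to 33), and the part of either in these values was not tested.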

How the results depend on the processing

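Counts of called members are given as lower and higher. They stand without the share of all probes called under the same setting. A changed count therefore does not show whether the members moved apart from the other probes. For microfluidic against control (16 and 18), the deposited values gave 28 and 11, a common spread over 5 groups 4 and 9, and probes detected on all arrays of both groups, an alternative chosen after seeing the data, 3 and 7 of 18. For conventional against control (5 and 4), median centring gave 9 and 10, the deposited values 8 and 47, a common spread 9 and 6, and the dim-probe filter 5 and 1. For microfluidic against conventional (3 and 7), they gave 8 and 13, 49 and 5, 11 and 13, and 0 and 7. For explant against control (4 and 16), the deposited values gave 8 and 34, a common spread 0 and 3 (the spread then includes the other groups), no background correction 1 and 20, 1 probe per gene 2 and 16, and probes detected in both groups 0 and 5 of 13. With the replicate number as a block, the counts were 16 and 17, 7 and 6, 3 and 5, and 2 and 14 in that order, and not every array correlated best with its own number. Leaving out 1 array gave 12 to 18 and 11 to 17, 2 to 16 and 0 to 12, 1 to 5 and 1 to 5, and 2 to 7 and 11 to 17. For cells the deposited values gave 3 above explant in place of 10 and 4 below microfluidic in place of 2. Leaving out 1 cell or array gave 21 to 27 below and 10 to 13 above explant, and 3 to 8 below and 5 to 13 above microfluidic. Detected members on control arrays fell to 45 with a limit of 3 SD. The limit from blank spots raised detection to 77.7 on control, 71.3 on microfluidic, 62.8 in single cells and 44 on explant arrays. Mrpl55 in conventional against control turned to 0.78 log2 with the deposited values. It was the only named difference of the 4 tested comparisons to turn. Of their 256 values under settings that keep all arrays 29 were no longer past the threshold, and of 191 values without 1 array 44 were not. The correlation of the 2 contrasts without shared arrays ran from 0.72 to 0.76 over the 4 kinds of values. The causes of these shifts were not tested unless stated, and signal near background limits every conventional value.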
